A study of Mus musculus with 617 samples.

Results

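The 10 genes followed here make up much of the transcription factor network of naive pluripotency: Klf2, Klf4, Klf5, Esrrb, Tfcp2l1, Tbx3, Prdm14, Nr0b1, Nr5a2 and Zfp42. They are 10 of the 43628 gene IDs in each deposited table, chosen by name, and each symbol matched 1 ID. RNA was measured by SMART-seq2, a full-length single-cell RNA sequencing method, in 617 mouse cells of 13 groups. The cultured cells came from 2 embryonic stem (ES) cell lines, 1 female and 1 male, with CAST/EiJ as the paternal and C57BL/6J as the maternal strain. ES cells were kept in 2i with LIF (60 female and 51 male cells) or in serum with LIF (68 and 52 cells). Epiblast stem cells (Epi, 79 and 63 cells) were derived from both lines with Activin A and FGF2, and a further female Epi culture of 7 passages gave 41 cells. Motor neuron cultures (39 and 35 cells) were made through embryoid bodies with retinoic acid and the smoothened agonist SAG, a protocol that also yields interneurons. The embryo cells were 23 inner cell mass cells of E3.5 and 23 cells labelled epiblast of E4.5, from crosses of the same strains and with no sex given, and 20 female and 63 male E5.5 epiblast cells of pure C57BL/6J embryos. Each line stands for 1 culture per state, so sex and line are the same factor. Titles of the E3.5 and E4.5 cells all begin with the word lateblast and a number, and some end in a further pair of numbers. The labels do not explain these numbers, which may mark embryos and were not used. No animal was named for the embryo cells, so an embryo stage counts as 1 sample and carries no test.

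Naive pluripotency is the state of the preimplantation epiblast and of ES cells whose self-renewal is held by LIF and by blocking MEK and GSK3 signalling, the inhibitor pair known as 2i. LIF acts through STAT3 and drives Klf4 and Tfcp2l1, while inhibition of GSK3 lifts the repressor Tcf7l1 from targets such as Esrrb. These factors activate each other and the core genes Pou5f1, Sox2 and Nanog, and they are shut down when the epiblast implants and becomes primed, a state that Epi cells represent and that depends on Activin and FGF.

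Values are FPKM, fragments normalised to transcript length and library size, so levels of different genes can be set side by side. A gene is called detected in a cell at 1 FPKM or more, and the range in brackets after a share is its exact Clopper-Pearson interval at 95%, which covers counting error only. Where 0 cells detected a gene, the share given as "up to" is 3 over the number of cells, which is not that interval. The number of fragments per cell is unknown. Group medians of the genes detected in a cell ran from 8122 to 10839.5. The 4 tables were normalised separately, so a level of the 8 main cultures set beside one of the later-passage Epi, blastocyst or E5.5 cells includes any difference between tables.

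Several groups carried genes of other cell types, and these bear on the results below. Of 8 trophectoderm markers, the median E4.5 cell had 8 and the median E3.5 cell 6 at 1 FPKM or more. Cdx2, the trophectoderm master regulator, was detected in 86.96% of E4.5 and 56.5% of E3.5 cells, with means of 48.6 and 13.7 FPKM. All E4.5 cells also held Pou5f1, Nanog and Sox2, with means of 305.6, 64.02 and 8.79 FPKM. The endoderm markers Gata6 and Dab2 were detected in 82.6% and 73.9% of them. The E4.5 cells thus carried RNA of several lineages. Their epiblast label is in doubt, and their levels are those of cells labelled E4.5 epiblast. E5.5 cells held Ttr, a visceral endoderm gene, in 100% of female and 98.4% of male cells, beside Pou5f1 in all of them. The motor neuron cultures held both neuron and endoderm genes: the summed level of 8 endoderm markers had a median of 68.1 FPKM (0 to 1317) in the female and 794 FPKM (4.81 to 5019) in the male culture, against medians of 0.13 and 0.42 FPKM in serum. One E3.5 cell had an FPKM sum 12.89 times the median of its group. Cell titles in 7 of the 8 cultures of the fit, all but female serum, fell into 2 runs of numbers, which the labels do not explain.

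The genes lie on GRCm38 at chr8:72319033-72321656 (Klf2), chr4:55527143-55532466 (Klf4), chr14:99298691-99315036 (Klf5), chr12:86361117-86521628 (Esrrb), chr1:118627945-118685168 (Tfcp2l1), chr5:119670669-119684724 (Tbx3), chr1:13113457-13127163 (Prdm14), chrX:86191764-86195947 (Nr0b1), chr1:136842571-136960448 (Nr5a2) and chr8:43295063-43306980 (Zfp42), and all are protein coding. Exons of Tbx3 overlap those of the antisense RNA Tbx3os1, so without a statement on strand reads of this pair cannot be told apart. An exon of Tfcp2l1 overlaps the small nuclear RNA Gm23497 on the same strand, so reads there could belong to either.

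In 2i all 10 factors were on in nearly every cell. Of 60 female cells, 57 had all 10 at 1 FPKM or more, as did 45 of 51 male cells, and no cell had fewer than 9. Nr5a2, an orphan nuclear receptor that activates Pou5f1, was the exception, with a mean of 4.86 FPKM in 57 of 60 female cells (86.1% to 98.96%) and 3.83 FPKM in 88.2% of male cells (76.1% to 95.6%). The other 9 were detected in every 2i cell. Zfp42 (Rex1), a zinc finger protein long used as a marker of undifferentiated ES cells, was highest at 115.5 ± 29.6 FPKM (SD among cells, n = 60) in the female and 125.8 ± 32.4 (n = 51) in the male line. Nr0b1 (Dax1), an X-linked nuclear receptor that lacks the usual DNA-binding domain, followed at 107 ± 44.04 and 83.7 ± 32.1 FPKM. Tfcp2l1, a CP2 family factor downstream of LIF, stood at 70.7 ± 22.6 and 78.7 ± 37.7 FPKM. The 3 Krüppel-like factors, zinc finger proteins that bind GC-rich and CACC sequences, had means of 62.5 and 41.6 (Klf2), 58.6 and 52.7 (Klf5), and 32.4 and 31.6 FPKM (Klf4). Esrrb, an orphan nuclear receptor, had 49.8 and 40.6 FPKM. Prdm14, a PR-domain protein that represses DNA methyltransferases, and Tbx3, a T-box factor, were lower, at 27.2 and 22.2 and at 23.7 and 27.3 FPKM. SDs among cells overlapped between neighbours in this order, except that Nr5a2 lay apart below the other factors. Zfp42 and Nr5a2 marked the ends of the order in both lines.

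**Figure D1:**
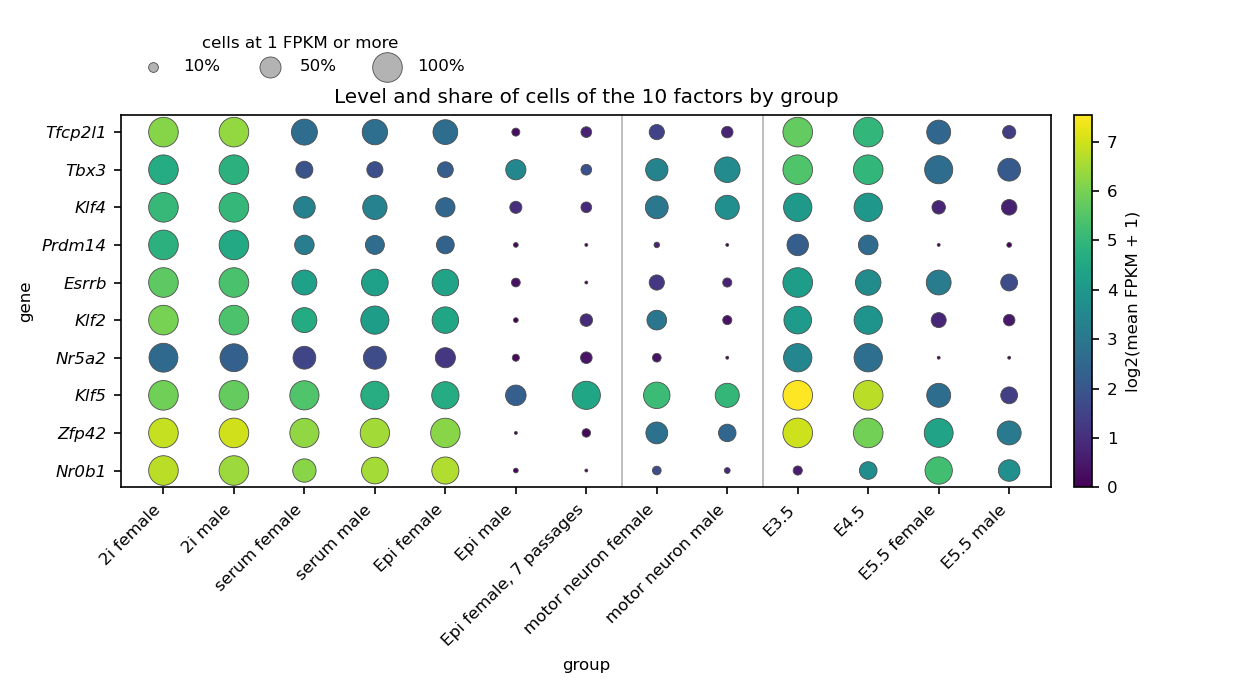
Mean level (colour, log2(mean FPKM + 1)) and share of cells at 1 FPKM or more (area of the point) of the 10 factors (rows, ordered by the share of their 2i level left in serum) in the 13 groups (columns). The points are large and bright in both 2i cultures, small in male Epi and in the Epi culture of 7 passages for all but Klf5 in both and Tbx3 in male Epi, and large again at E3.5 and E4.5 for all factors but Nr0b1 and Prdm14.

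In serum the factors were left at very different shares of their 2i level, in nearly the same order in both lines. Tfcp2l1 was left at 7.54% (female) and 7.02% (male) and Tbx3 at 11.9% and 9.23%, the 2 lowest in both lines. Klf4 followed at 27.01% and 28.3% and Prdm14 at 29.4% and 23.5%. Esrrb was left at 36.2% and 44.9% and Klf2 at 37.5% and 41.1%. Zfp42, at 66.7% and 70.9%, and Nr0b1, at 67.7% and 108.9%, were among the least reduced in both lines. Nr0b1 differed most between the lines, and Klf5 (74.1% and 46.98%) and Nr5a2 (39.05% and 60.6%) came next. Over the 10 factors Spearman's rho between the orders of both lines was 0.90, given as a description since the factors are not replicates. Tfcp2l1 and Tbx3 did not overlap each other or any other factor over the 2 lines by these means, whereas Klf4 overlapped Prdm14, Esrrb overlapped Klf2 and Nr5a2, and Klf5 overlapped Zfp42 and Nr0b1. The order rested in part on the mean. By the median over cells, Prdm14 was left at 0% and 0.427% and Tbx3 at 0.201% and 0%, below Tfcp2l1 at 5.35% and 4.69%, and in the female line Klf4, at 4.44%, was also below Tfcp2l1. By the median Nr0b1 was left at 20.2% and 43.9%. In the male line it also turned on the run of title numbers: Nr0b1 was left at 320% in the lower run of 13 serum cells and 49.9% in the higher run, Zfp42 at 136.75% and 49.2%, and in the lower run Klf4 (15.8%) stood below Tbx3 (18.2%).

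A lower mean came with fewer detecting cells, with less RNA in the detecting cells, or with both. Tfcp2l1 remained detected in 76.5% of female and 73.1% of male serum cells, but its mean within those cells was 9.80% and 9.60% of that in 2i. The lowest, median and highest values were 31.5, 65.98 and 159.4 FPKM in female 2i and 0, 3.53 and 25.4 FPKM in female serum, so the groups did not overlap. The male line gave 38.04, 69.5 and 260.7 FPKM in 2i and 0, 3.26 and 32.3 FPKM in serum, again without overlap. Nr0b1 did the reverse by its means. Its share was 61.8% (49.2% to 73.3%) in female and 80.8% (67.5% to 90.4%) in male serum cells. The mean within detecting cells was 109.5% and 134.8% of that in 2i. Medians within detecting cells were 77.2 and 91.5 FPKM, against 101.6 and 80.6 FPKM in 2i. The 2 runs of male serum cells were unlike. The lower detected Nr0b1 in 100% of 13 cells (mean 223 FPKM) and the higher in 74.4% of 39 cells (47.02 FPKM). The lower and higher runs of male 2i had means of 69.8 and 94.3 FPKM. Serum cells ranged from 0 to 488 FPKM (median 20.5) in the female and from 0 to 439 FPKM (median 35.4) in the male line, against 40.2 to 260 and 9.64 to 165.2 FPKM in 2i. The spread of Nr0b1 among serum cells therefore reached both below and above the 2i range. Tbx3 and Prdm14 were detected in a minority of cells, with 32.4% and 28.8% of serum cells detecting Tbx3 and 42.6% and 40.4% detecting Prdm14. Zfp42 and Klf5 stayed on in most cells: Zfp42 in 97.1% and 98.1%, and Klf5 in 97.1% and 90.4%. Their medians in serum were 50.3 and 58.3 FPKM for Zfp42 and 36.7 and 19.5 FPKM for Klf5.

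**Figure D2:**
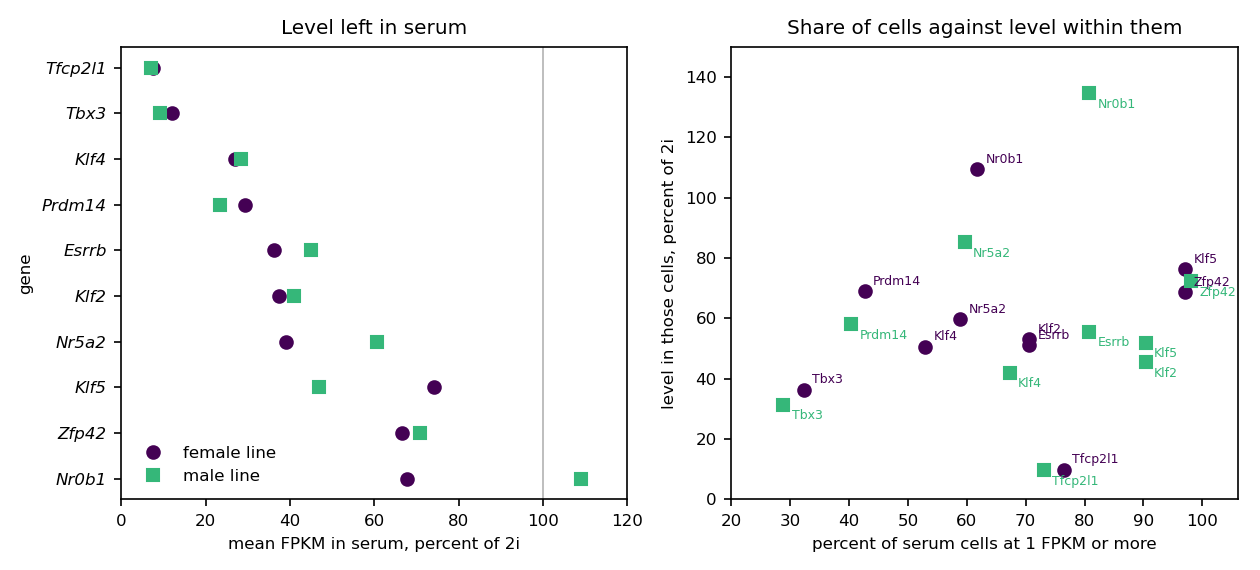
Left, mean FPKM in serum as a percent of the mean in 2i for each factor and line (circles female, squares male). Right, the percent of serum cells with the factor at 1 FPKM or more against the mean level within those cells as a percent of 2i. Tfcp2l1 lies at the bottom with over 70% of cells but under 10% of the level, Nr0b1 at the top above 100%, and Tbx3 and Prdm14 at the left.

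Across cultures, serum was compared with 2i by limma on the log2 mean FPKM (plus 1) of each culture, with the 8 cultures of 4 states in 1 fit. Calls required an adjusted p under 0.05 (Benjamini-Hochberg over the 15504 genes tested) and a log2 change of 1 or more in either direction. All 10 factors were lower in serum, with a median log2 change of -1.29 against 0 over all genes, but 0 passed. The background was nearly as empty, with 0.0129% of genes called lower and 0.00645% called higher. At an unadjusted p under 0.05, 4 of the 10 and 1549 of all genes differed. Tbx3 came nearest with a log2 change of -2.85 (SE 0.44, limma adjusted p = 0.0882), and it was lower in both lines. Tfcp2l1 changed by -3.56 (SE 0.74, limma adjusted p = 0.163), again lower in both lines. When log2 values were averaged over cells in place of taking the log of the mean, Tfcp2l1, Tbx3, Klf4 and Prdm14 were called lower, where 1.37% of all genes were. One factor was called when the 7-passage female Epi culture stood in for the first (Tfcp2l1, with 0.524% of all genes called lower) or when either Epi culture was left out (Tbx3, with 0.193% in both fits).

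Promoter sequences were at hand for 7 of the 10 factors, in 9 windows from RefSeq (build GRCm38.p6). The 250 bases before the start site are shown for Zfp42 and Klf4, whose windows hold most matches, and for Tfcp2l1, the factor most reduced in serum, which has 0. Capitals mark the GC box GGGCGG and the CACC box GGGTGG, short sequences of the kind that Krüppel-like and Sp proteins bind, and the octamer ATTTGCAT, the sequence that POU proteins such as Pou5f1 bind, each on either strand.
Zfp42, chr8:43307010-43307259, minus strand: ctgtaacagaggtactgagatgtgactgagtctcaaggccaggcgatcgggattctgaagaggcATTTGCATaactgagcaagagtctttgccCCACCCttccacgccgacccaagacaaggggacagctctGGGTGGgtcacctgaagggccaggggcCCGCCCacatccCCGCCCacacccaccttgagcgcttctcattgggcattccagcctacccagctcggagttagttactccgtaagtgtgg
Klf4, chr4:55532476-55532725, minus strand: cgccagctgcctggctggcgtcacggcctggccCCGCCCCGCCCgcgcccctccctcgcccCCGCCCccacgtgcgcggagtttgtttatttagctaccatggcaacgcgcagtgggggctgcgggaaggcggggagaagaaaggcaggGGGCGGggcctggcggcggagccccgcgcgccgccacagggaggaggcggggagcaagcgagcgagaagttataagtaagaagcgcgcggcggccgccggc
Tfcp2l1, chr1:118627695-118627944, plus strand: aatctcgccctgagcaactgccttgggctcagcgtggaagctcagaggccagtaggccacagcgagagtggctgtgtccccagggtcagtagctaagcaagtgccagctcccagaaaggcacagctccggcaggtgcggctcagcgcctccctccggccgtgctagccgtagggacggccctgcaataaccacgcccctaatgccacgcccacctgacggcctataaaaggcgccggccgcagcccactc
The octamer of Zfp42 lies at -186 to -179 from the start site, and 1.601% of 32851 promoter windows of the same length hold one. Among the 9 windows, 3 hold a GC box and 6 a CACC box, sequences present in 32.7% and 28.1% of all windows. The sequence CAAGGTCA, a half-site of the kind that Esrrb and Nr5a2 bind, is in 0 of the 9 windows and in 1.33% of all. A match is a description of the letters and no site was tested.

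The Epi cultures did not hold the factors alike. The female Epi culture had 72.5 FPKM of Zfp42, 97.6 of Nr0b1, 19.9 of Esrrb, 20.98 of Klf2 and 5.29 of Tfcp2l1, where female serum cells had 77.03, 72.4, 18.01, 23.4 and 5.33 FPKM. In the male Epi culture the same 5 genes had 0.069, 0.079, 0.24, 0.040 and 0.19 FPKM. The female Epi culture of 7 passages was like the male one, with Zfp42 at 0.12, Klf2 at 0.87 and Tfcp2l1 at 0.66 FPKM and with Esrrb, Nr0b1 and Prdm14 listed at 0 in all 41 cells, which allows a share of up to 7.32% of cells. Of 63 male Epi cells, 0 detected Zfp42 (up to 4.76%) and 1 each detected Klf2, Prdm14 and Nr0b1. In female Epi 78 of 79 cells detected Zfp42. The lowest, median and highest Zfp42 values were 0, 29.03 and 360 FPKM in female Epi, 0, 0 and 0.86 in male Epi, and 0, 0 and 2.09 at 7 passages. The first female Epi culture thus overlapped the others at its lower end, while most of its cells lay above every cell of the other 2. Its naive factors go against its Epi label, while the summed level of 10 primed epiblast genes goes with it in part. That sum had a median of 426 FPKM (15.9 to 1488), against 232 in female serum, 333 in male serum, 925 in male Epi and 771 at 7 passages. It includes the gene T, which is also among the mesendoderm markers below. The label is therefore in doubt, and the Epi comparisons are given with and without this culture. Mesendoderm markers moved with the difference between the Epi cultures. Mixl1 had 3.498 FPKM in the first female Epi culture, 576 in male Epi and 129.8 at 7 passages. The summed level of the 6 markers had medians of 2.06 (0 to 529), 759 (82.2 to 3834) and 305.2 FPKM (0.08 to 1997). All 6 had higher means in male Epi and at 7 passages than in the first female culture, and their part in the levels of the factors was not tested.

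In the other 2 Epi cultures Klf5 stayed on in part of the cells, and Tbx3 did so in male Epi. Klf5, which also acts in trophectoderm and other epithelia, was at 21.2 ± 21.2 FPKM (SD, n = 41 cells) in the Epi culture of 7 passages, 36.2% of the female 2i level, and was detected in 90.2% of cells (76.9% to 97.3%). In male Epi it had 3.72 FPKM and was detected in 47.6% of cells (34.9% to 60.6%). Tbx3, which is also active in endoderm and other lineages, was at 10.4 ± 17.8 FPKM (SD, n = 63 cells) in male Epi, 38.2% of the male 2i level and above the 2.52 FPKM of male serum. Within the 46.03% of male Epi cells that detected it the mean was 22.6 FPKM, against 27.3 FPKM in male 2i. At 7 passages Tbx3 was detected in 5 of 41 cells, with a mean of 2.61 FPKM. Across male Epi cells Tbx3 had Spearman's rho of 0.28 with the summed endoderm markers and -0.47 with the summed core pluripotency genes (n = 63 cells, which share a culture and their depth). Endoderm markers also differed between these cultures: Gata6 was detected in 73.02% of male Epi cells, 26.8% at 7 passages and 1.27% of the first female Epi cells, and their part in the level of Tbx3 was not tested.

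**Figure D3:**
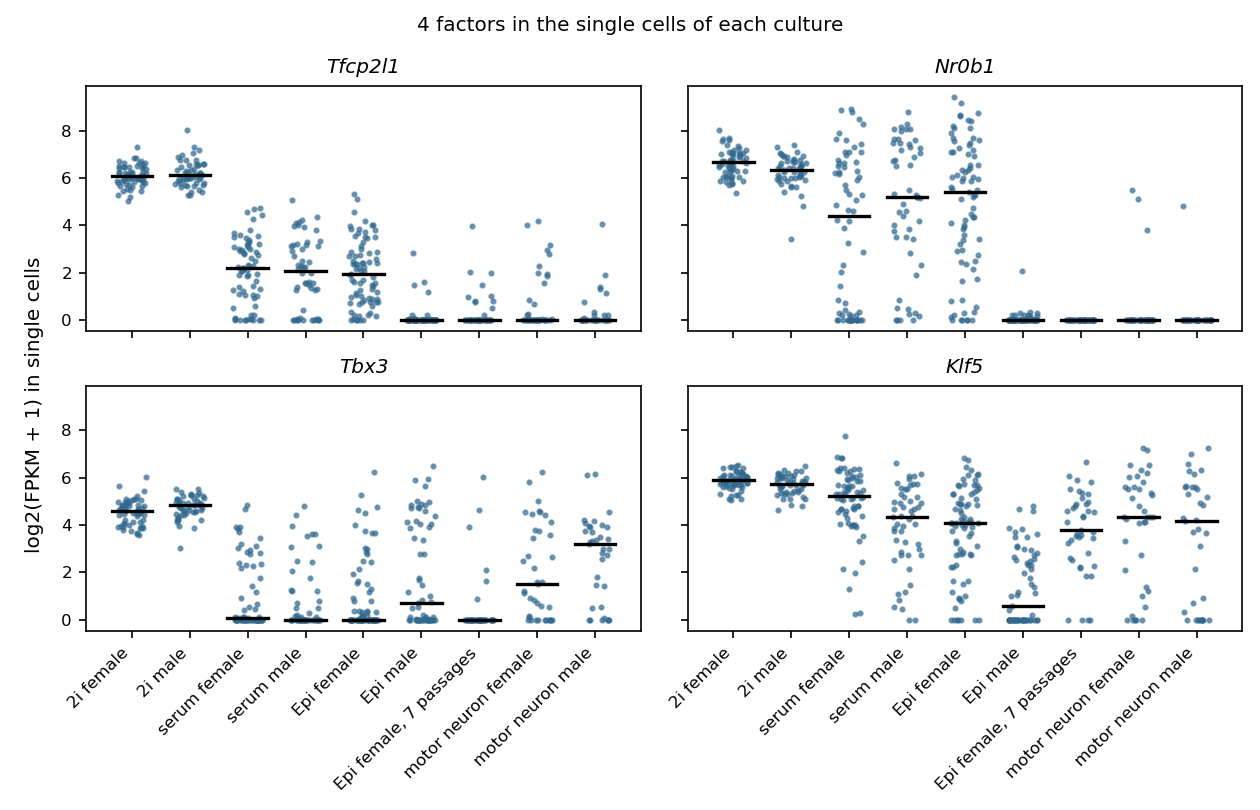
Tfcp2l1, Nr0b1, Tbx3 and Klf5 in the single cells of the 9 cultures, as log2(FPKM + 1), with a line at the median. Tfcp2l1 shifts down as a whole from 2i to serum, Nr0b1 spreads from 0 to above its 2i range, and both lie near 0 in male Epi and at 7 passages, where Klf5 (7 passages) and Tbx3 (male Epi) keep detecting cells.

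With the first female Epi culture in the fit, Epi differed from serum by more than the spread between cultures for 0 of the 10 factors. 9 had a negative change, with a median log2 change of -1.64 against 0.12 over all genes, and limma adjusted p-values of 0.727 to 0.739. The background was 0.00645% called lower and 0.0322% called higher, and 1 factor and 1000 genes had an unadjusted p under 0.05. The lines did not go together: Zfp42 changed by -0.087 in the female and -6.40 in the male line, and Nr0b1 by 0.43 and -6.42. The doubt over the first female culture rests on its levels of these same factors, so counts of them without it are no independent support. With the Epi culture of 7 passages, which was normalised separately, as the female one, 7 factors were called lower (Klf2, Klf4, Esrrb, Tfcp2l1, Prdm14, Nr0b1 and Zfp42), beside 2.55% of all genes. Without the first female culture 4 were (Klf5, Esrrb, Nr0b1 and Zfp42), beside 0.832% of all genes. Without the male Epi culture 0 were called, and Klf2, Esrrb and Nr0b1 turned to changes of 0.07, 0.13 and 0.26.

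Against 2i the Epi cultures were lower for all 10, with a median log2 change of -3.27 against 0.13 over all genes. Again 0 passed, at a background of 0.374% called lower and 0.29% called higher, while 7 of the 10 and 2362 of all genes had an unadjusted p under 0.05. Tfcp2l1 changed by -4.79 (SE 0.74, limma adjusted p = 0.0577) and Klf4 by -3.32 (SE 0.52, limma adjusted p = 0.0587), both lower in both lines. With the 7-passage culture as the female one, 8 factors were called lower, all but Klf5 and Tbx3, beside 4.84% of all genes. Leaving the first female culture out gave 8, all but Klf2 and Tbx3, beside 2.14% of all genes. Here too the counts without the first female culture are no independent support, since the factors themselves put it in doubt. These 2 comparisons share the Epi cultures with each other, and serum and 2i with the first comparison.

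Counting factors per cell separated the cultures along the same lines. The mean number of the 10 at 1 FPKM or more was 9.95 ± 0.22 (SD among cells) and 9.88 ± 0.33 in female and male 2i, and 6.60 ± 2.64 and 7.10 ± 2.39 in serum. Serum cells spread over 2 to 10 factors: 21 of 68 female and 17 of 52 male cells still had 9 or 10, and 5 and 3 cells had 2. Female Epi cells had 6.47 ± 2.25, with 17 of 79 cells at 9 or 10. Male Epi cells had 1.33 ± 1.00 and the Epi culture of 7 passages 1.66 ± 0.96, and 57 of 63 and 34 of 41 cells had 0 to 2. No cell of these 2 cultures had more than 4.

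**Figure D4:**
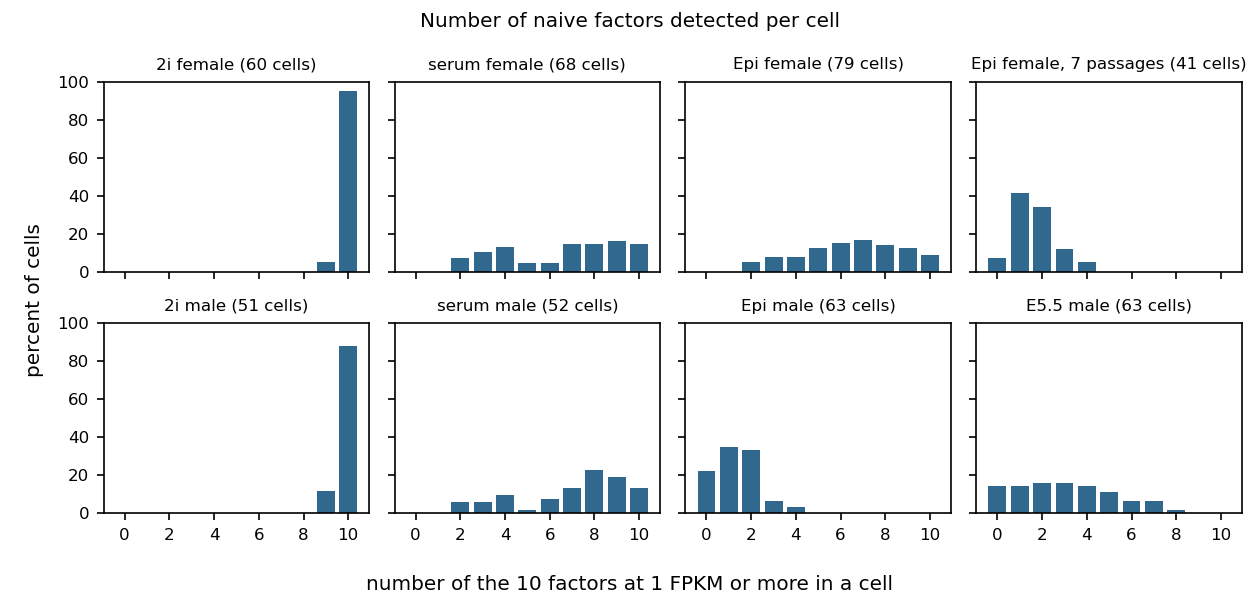
Percent of cells (vertical axis) with a given number of the 10 factors at 1 FPKM or more (horizontal axis) in 8 groups. All 2i cells have 9 or 10, serum and female Epi cells spread from 2 to 10, and male Epi cells and the Epi cells of 7 passages have 0 to 4.

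In serum the factors varied together from cell to cell, and in 2i most pairs showed little relation. Over the 45 pairs, the median Spearman's rho across cells was 0.028 in female 2i (24 pairs positive) and 0.062 in male 2i (26 positive). In serum it was 0.47 in both lines and in female Epi 0.43, with all 45 pairs positive in each of the 3. The median over all pairs of genes averaging 10 FPKM or more was 0.031, 0.012 and 0.017 in these 3 cultures. Cells of a culture share its library preparation, so these are descriptions. The number of genes detected ran inversely to the factors in serum: its rho with their summed level was -0.22 in female and -0.38 in male cells. Its part in the relation between the factors was not tested. In male serum the relation held in the higher run of title numbers (0.54) and was 0.082 in the lower run of 13 cells. That lower run stood higher for 9 of the 10 factors, all but Klf4, with Nr0b1 at 223 against 47.02 FPKM and Zfp42 at 166.2 against 63.4 FPKM.

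Zfp42, Esrrb and Nr0b1 were in several of the most tightly related pairs. Klf2 with Esrrb had the highest rho in female serum, 0.80, and Nr0b1 with Zfp42 the highest in male serum, 0.76. Nr0b1 with Zfp42 reached 0.71 in female serum and 0.76 in female Epi, and Esrrb with Zfp42 0.73, 0.64 and 0.77 in female serum, male serum and female Epi. Klf5 was the least related in female serum, with a median rho over its 9 pairs of 0.21, but not in male serum (0.55) or female Epi (0.52). In female Epi cells Esrrb had a rho of -0.69, Zfp42 -0.67 and Klf5 -0.67 with the summed level of 10 primed epiblast genes. The same 3 values were -0.21, -0.11 and -0.24 in female serum.

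**Figure D5:**
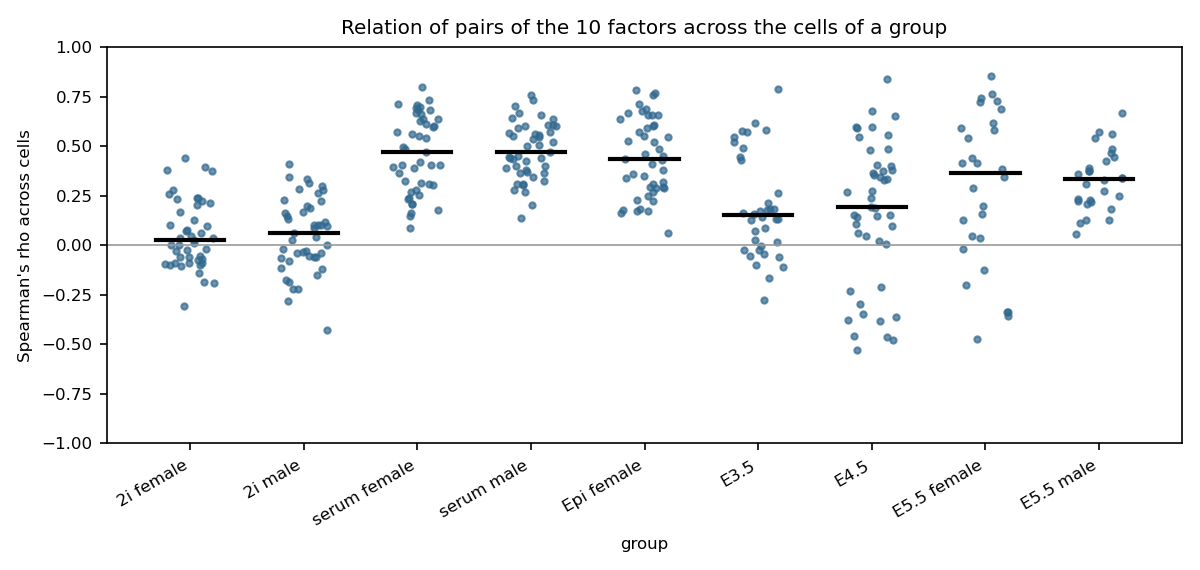
Spearman's rho across the cells of a group (vertical axis) for each pair of the factors detected in at least 10% of its cells, with a line at the median. Pairs centre near 0 in 2i and near 0.47 in serum, and at E4.5 they range from -0.53 to 0.84.

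In the motor neuron cultures Prdm14 and Nr5a2 were lower than in serum and Tbx3 was higher. Prdm14 was listed at 0 in all 35 male cells (up to 8.57% of cells) and detected in 1 of 39 female cells, with a log2 change of -2.55 (SE 0.73, limma adjusted p = 0.0367, lower in both lines). Nr5a2 was listed at 0 in all male cells and detected in 3 of 39 female cells, with a log2 change of -1.44 (SE 0.43, limma adjusted p = 0.0414, lower in both lines). Tbx3 rose from 2.84 and 2.52 to 9.29 and 11.0 FPKM, a log2 change of 1.595 (SE 0.44, limma adjusted p = 0.0333, higher in both lines). These are 2 of 10 called lower and 1 of 10 called higher, beside 2.7% and 30.1% of all genes. All genes moved up by a median log2 of 0.71, and after scaling each culture to 1 upper quartile by -0.01. Under that scaling Tbx3 changed by 0.87 and was not called, while Prdm14 (-2.90) and Nr5a2 (-1.71) were. The higher share of calls moved from 91.8% to 56.3% with it.

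Esrrb, Nr0b1 and Zfp42 had larger changes in these cultures that did not pass. Nr0b1 had a log2 change of -5.08 (SE 1.85, limma adjusted p = 0.0746), Zfp42 -3.75 (SE 1.72, limma adjusted p = 0.133) and Esrrb -3.30 (SE 1.17, limma adjusted p = 0.0691). They were called lower when the Epi culture of 7 passages replaced the first (4.55% of all genes called lower), when the female or the male Epi culture was left out (4.51% and 4.5%), and in a fit on the serum and motor neuron cultures alone (2.06%). Klf4 and Klf5 stayed near their serum levels, at 6.88 and 12.2 FPKM for Klf4 and 34.03 and 30.5 FPKM for Klf5. Within the cultures Klf5 had a rho of 0.61 (female, n = 39 cells) and 0.76 (male, n = 35 cells) with the summed endoderm markers and -0.60 and -0.69 with the neuron markers. Klf4 had 0.35 and 0.74 with the endoderm markers. Tbx3 in the male culture went the other way, with 0.52 for neuron and -0.50 for endoderm markers, and in the female culture had -0.20 and 0.24. The part of cells with endoderm genes in these levels was not tested. Leaving out any 1 of the serum, 2i or motor neuron cultures left 0 of the factors called in either direction.

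In the embryo 8 of the factors were on at E3.5 and E4.5, and Nr0b1 stood apart. It was detected in 2 of 23 E3.5 cells and 8 of 23 E4.5 cells, with means of 0.50 and 11.6 FPKM, and in 17 of 20 female and 33 of 63 male E5.5 cells, with 37.2 ± 54.3 and 12.1 ± 34.5 FPKM (SD among cells). Prdm14 was detected in 12 of 23 cells at E3.5 and 10 of 23 at E4.5, and in 0 of 20 female (up to 15.0%) and 1 of 63 male cells at E5.5. Nr5a2 went from 91.3% of cells at E3.5 and E4.5 to 0 of 20 and 0 of 63 at E5.5. The other factors were detected in at least 73.9% of cells at both earlier stages. Klf5 had the highest median there, at 107 FPKM (10.5 to 1745) at E3.5 and 96.3 FPKM (27.1 to 258.3) at E4.5. Without the E3.5 cell of the outlying FPKM sum, the means at E3.5 went from 184.35 to 113.4 FPKM for Klf5 and from 122.96 to 50.1 FPKM for Zfp42, and of Tfcp2l1 and Tbx3 from 51.9 to 44.4 and from 43.1 to 30.9 FPKM.

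At E5.5 the mean levels of all factors but Nr0b1 were below those of E3.5 and E4.5. Klf2 and Klf4 were at 0.75 and 0.73 FPKM in female and 0.41 and 0.58 in male cells. Esrrb (7.53 and 2.32), Tfcp2l1 (4.45 and 1.53), Tbx3 (5.37 and 3.28), Klf5 (5.34 and 1.61) and Zfp42 (19.8 and 7.37 FPKM) were still present. The mean number of factors per cell was 8.30 ± 1.15 at E3.5, 8.26 ± 1.18 at E4.5, and 5.15 ± 1.497 and 3.02 ± 2.16 in female and male E5.5 cells. Female E5.5 cells also held more endoderm RNA, with a median summed marker level of 774 FPKM against 226.6 FPKM in male cells. They also held more of the 8 trophectoderm markers, with summed medians of 396 FPKM (93.01 to 920) and 184.7 FPKM (80.6 to 790), and Cdx2 in 14 of 20 and 20 of 63 cells. Across female cells the trophectoderm sum had a rho of 0.95 with Esrrb, 0.84 with Zfp42, 0.74 with Nr0b1 and 0.73 with Klf5, where the endoderm sum had 0.28, 0.25, -0.08 and 0.10. Across male cells the trophectoderm sum had 0.65 with Nr0b1 and 0.64 with Zfp42, where the endoderm sum had 0.41 and 0.42. Tbx3 went more with the endoderm sum, at 0.70 and 0.69 in female and male cells. The part of either cell type in these levels was not tested.

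Among E4.5 cells the factors divided by trophectoderm gene level. Klf5 had a rho of 0.67 with the 8 summed trophectoderm markers, while Esrrb had -0.73, Klf4 -0.69 and Tbx3 -0.57 (n = 23 cells). Klf5 had negative rho with Esrrb (-0.48) and Klf4 (-0.46), and Klf4 with Esrrb had 0.84, the highest of the 45 pairs. In the 3 E4.5 cells with Cdx2 under 1 FPKM, Zfp42 averaged 155.1 FPKM against 45.7 in the other 20, Klf4 44.3 against 11.0 and Prdm14 19.5 against 2.97, while Klf5 averaged 55.1 against 114.02 FPKM. One of the 3 cells carried the value of Klf4, which ranged from 12.5 to 107.4 FPKM and averaged 12.8 without it. Without their highest cell Zfp42 averaged 110.4 and Prdm14 11.97 FPKM. At E3.5 the 10 cells with Cdx2 under 1 FPKM had Klf5 at 93.03 FPKM against 255 in the others, or 130.4 without the cell of the outlying FPKM sum. These cells had 9.33 (E4.5) and 8.60 (E3.5) factors on average.

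The other genes of the network gave few calls. Of 12 further naive network genes, the 4 most abundant being Tdh, Nanog, Mycn and Jam2, 0 were called between serum and 2i (8 lower, median log2 change -0.66). In Epi against 2i, with the first female Epi culture in the fit, 1 was called lower, beside 0.374% of all genes. It was Spic, an ETS family factor (-3.50, limma adjusted p = 0.0315, named after its value was seen). In motor neurons against serum 1 was called lower, Nanog (-5.04, limma adjusted p = 0.0139), beside 2.7% of all genes. All 12 had negative changes. Of 5 core pluripotency genes 0 were called between serum and 2i or in Epi, and their median changes were 0.01 and -0.13 for serum against 2i and Epi against serum. Pou5f1 was lower in motor neurons (-6.01, limma adjusted p = 0.0271), as was Sall4 (-1.24, limma adjusted p = 0.017). These were 2 of the 5, beside 2.7% of all genes called lower. Of 6 LIF pathway genes 0 were called between the pluripotent states, and in motor neurons Jak1 (3.69), Lifr (3.48) and Stat3 (2.00) were called higher, 3 of 6 beside the 30.1% of all genes and the median shift of 0.71. Of 7 repressors and factors of exit from naive pluripotency, 6 were tested. Etv4 was called higher in Epi against 2i (3.42, limma adjusted p = 0.0294), in the same fit as Spic and beside 0.29% of all genes. Among 10 primed genes 9 were tested and 0 were called between the pluripotent states, with a median log2 change of 1.37 in serum against 2i. In motor neurons 3 of the 9 were called lower (Otx2, Dnmt3b and Lef1, median of the list -1.05), beside 2.7% of all genes. The most abundant, the DNA methyltransferase Dnmt3a, had 16.1 and 15.0 FPKM in 2i and 157.2 and 260.1 FPKM in serum and did not pass (limma adjusted p = 0.151).

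Genes with a pattern like that of the factors were ranked among 9757 other genes with a mean of 10 FPKM or more in some culture and at least 200 exonic bases. Over the 8 cultures the closest to their mean standardised profile by Pearson's r were Rfx2 (0.996), Fam25c (0.988), Aqp3 (0.981), Tigar (0.977) and Sod2 (0.976). Across cells of the 2i and serum cultures the closest by mean Spearman's rho with their summed log2 level were Sod2 (0.52), Zfp57 (0.49), Mreg (0.48), Nanog (0.47) and Epop (0.46), where the median gene had 0.01. Their rho came mostly from serum: Sod2 had 0.79 in both serum cultures and 0.21 and 0.29 in 2i. Each factor was also set against the mean of the other 9 over the 8 cultures. Prdm14 (0.96) and Tfcp2l1 (0.96) were closest to it and Tbx3 farthest, with an r of 0.18 against 0.75 to 0.96 for the others.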

How the data were processed

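The deposited values are FPKM per gene and cell in 4 tables; per the submitters' processing notes, reads were mapped to mm10 with STAR 2.4.1 and the authors used Cufflinks and Cuffnorm 2.2.1. No fragment counts were used, since only 35.8% to 42.6% of low values lay at 1 or 2 steps of a fragment. Gene IDs were matched to GRCm38 annotation (42462 of 43628).

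The mean FPKM of each of 8 cultures was tested as log2(mean + 1) with limma 3.58.1 (trend, 15504 genes averaging 1 FPKM or more, Benjamini-Hochberg, 4 residual degrees of freedom) in R 4.3.3. Cells of a culture are not replicates, and nothing states that the lines were grown more than once, so p-values measure the spread between these cultures. The states share the female and the male line, per the labels. Differences between the lines correlated at 0.061 to 0.163 over genes for pairs of states.

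Besides the members, genes were named by a rule: up to 4 with the highest mean in each other list, and the 5 closest in each ranking by likeness. Cdx2, Gata6, Lifr, Lef1, Spic and Fgf5 fall outside it and were named after their values were seen. Members and lists were chosen with earlier results of these data known. Alternatives covered the pseudocount, filter, scaling, cells of few genes, runs of title numbers, the line as block and leaving out each culture. Intervals used scipy 1.17.1.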

Additional observations from a re-analysis of the deposited data

Results flagged for a closer look

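The following changes had opposite signs in the female and male lines, each line being 1 culture per state, and the difference between lines was not tested. Nr0b1 differed between serum and 2i by a log2 change of -0.56 in the female and 0.12 in the male line. Between Epi and serum, Esrrb changed by 0.13 and -3.95 and Nr0b1 by 0.43 and -6.42, in the female and male line. Between motor neurons and serum, Klf4 changed by -0.31 and 0.41 and Klf5 by -0.34 and 0.29. The Epi culture of 7 passages, also female, had Esrrb and Nr0b1 listed at 0 in all 41 cells.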

How the results depend on the processing

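Counts of factors called lower were 0 for serum against 2i, 0 for Epi against serum, 0 for Epi against 2i and 2 for motor neurons against serum. With the 7-passage culture as the female Epi, in place of one doubted for its levels of these factors, they were 1, 7, 8 and 7. With log2 values averaged over cells, 4 were called in serum against 2i and 4 in Epi against 2i. In Epi against 2i, 1 upper quartile in every culture gave 2 (Klf4 and Tfcp2l1), beside 95 of 15400 genes called lower. The lower run of title numbers gave 1 (Klf4), beside 31 of 15323 genes. In motor neurons against serum the count was 1 with a pseudocount of 0.1, beside 456 of 15504 genes called lower. It was 0 with no filter (213 of 33861 genes) and 1 with a filter at 5 FPKM, which drops Nr5a2 (337 of 9966). With each cell rescaled to 1 FPKM sum it was 1 (971 of 15273). A fit on these 2 states alone gave 5 (319 of 15504) and the higher run 1 (450 of 15408). Leaving out 1 culture at a time gave 0 to 1, 0 to 4, 0 to 8 and 0 to 6, where a lone culture was assumed to vary like the others. The line as a replicate block left these counts at 0, 0, 0 and 2.

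Nr0b1 in serum against 2i turned to 0.61 in the lower run. Klf4 in motor neurons was at -0.40 and -0.72 under the rescaled sum and upper quartile, -0.22 in the higher run, and -0.32 to 0.42 with a culture left out. Klf5 there was at 0.0008 in the higher run and -0.42 to 0.37 with a culture left out. Leaving out a culture gave -4.34 to 0.066 (Klf2), -3.94 to 0.13 (Esrrb) and -6.25 to 0.26 (Nr0b1) for Epi against serum, and -6.47 to 0.045 (Nr0b1) for Epi against 2i. The cause was not tested.

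Over all genes, the calls lower and higher in serum against 2i were 2 and 1, and 213 and 11 with log2 values averaged over cells. In Epi against serum they were 1 and 5, and 394 and 454 with 7 passages, and in Epi against 2i 58 and 45, and 747 and 946. In motor neurons 419 and 4669 became 971 and 2166 with rescaled sums and 1597 and 2054 with 1 upper quartile. The adjusted p over alternatives ran from 0.00966 to 0.182 for Tbx3, 0.00336 to 0.172 for Prdm14 and 0.0144 to 0.163 for Nr5a2 in motor neurons. In serum against 2i it ran from 0.0107 to 0.508 for Tbx3 and 0.021 to 0.706 for Tfcp2l1. In Epi against 2i it ran from 0.000767 to 0.343 for Tfcp2l1 and 0.0017 to 0.364 for Klf4. The median rho of factor pairs in male serum was 0.082 in the lower run. Of 260 shares of cells, 85 moved past their interval with a threshold of 0.1 or 5 FPKM, and of 80 percentages left in serum and 80 in Epi, 40 and 4 moved. Depth per cell is unknown, so a gene listed at 0 may be below detection.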

Other observations

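T, the mesoderm regulator brachyury and a target of Wnt signalling, was detected in all 60 female and 51 male 2i cells, with means of 20.2 and 23.9 FPKM. In serum it was detected in 13.2% and 9.62% of cells, with means of 0.73 and 0.82 FPKM. It was listed at 0 in all E3.5 and E4.5 cells, and in male Epi and at 7 passages it had 153.8 and 147.4 FPKM, against 2.199 FPKM in the first female Epi culture.

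Core pluripotency genes also differed among the Epi cultures. Sox2, the partner of Pou5f1, had 28.5 FPKM in the first female Epi culture, 0.96 in male Epi and 2.63 at 7 passages. Utf1, a chromatin protein of pluripotent cells, had 683, 10.3 and 323.8 FPKM in these 3 cultures. Pou5f1 was detected in 98.7%, 98.4% and 95.1% of their cells. Fgf5, a marker of the primed epiblast, had 14.1, 144.9 and 120 FPKM. No test was possible for the culture of 7 passages alone, and Fgf5 was named after its values were seen.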
